A study of Mus musculus with 57 samples.

Results

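The BCL2 family is described here through 10 of its genes, chosen by their symbols, in mouse hearts exposed to the anthracycline doxorubicin (Doxo) with or without nicotinamide mononucleotide (NMN), a precursor of NAD+. All 10 were found in both count tables, as 10 of 25416 genes in the acute and 10 of 54658 genes in the chronic study. They are the anti-apoptotic *Bcl2*, *Bcl2l1* (BCL-XL) and *Mcl1*, the effectors *Bax* and *Bak1*, the BH3-only genes *Bbc3* (PUMA), *Pmaip1* (NOXA), *Bcl2l11* (BIM) and *Bid*, and *Bnip3*, a BH3-like receptor of mitophagy. The rule was by name and used no measured value, but the members were chosen with earlier results of these data known. All 10 passed the filter on low counts in the acute study, and 9 did in the chronic study, where *Pmaip1* did not.

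All mice were male, WT C57BL6/J. In the acute study mice bought at 9 weeks of age received 1 i.p. injection of 20 mg/kg Doxo (Doxo, 13 hearts), the same injection together with 180 mg/kg NMN i.p. every day from 5 days before Doxo (Doxo-NMN, 13 hearts), or vehicle (Ctrl, 14 hearts), and hearts were collected on day 5. In the chronic study mice were 14 to 16 weeks old at Doxo and received 5 i.p. injections that summed to 20 mg/kg within 2 weeks (Doxo, 6 hearts), the same Doxo with 500 mg/kg of NMN per day in the drinking water from 5 days before the first injection (Doxo-NMN, 6 hearts), or vehicle (Ctrl, 5 hearts), and hearts were collected on day 60. No heart came from a mouse given NMN without Doxo, so an effect of NMN in the absence of Doxo was not measured. Hearts came from mice alive on the day of collection, and each was sequenced as 1 library. The paper reports that in the acute study all Ctrl mice survived, while survival was lowest in Doxo and higher in Doxo-NMN. In the chronic study survival was also lower in Doxo than in Doxo-NMN, a difference below the paper's level of significance. The groups are thus survivors of unequal losses, and the part of this in the values was not tested.

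Proteins of this family decide whether the outer mitochondrial membrane stays intact. BAX and BAK, once activated, assemble in that membrane and release cytochrome c, which starts the caspase cascade. BCL2, BCL-XL and MCL1 hold them and their activators in check, and BH3-only proteins either bind the protectors or activate the effectors. Transcription of *Bax*, *Bbc3* and *Pmaip1* is known to be induced by p53 after DNA damage, *Bcl2l11* by FOXO factors, and *Bnip3* by hypoxia. Doxorubicin damages DNA and mitochondria, and loss of cardiomyocytes through these pathways is one of the long-studied routes of its cardiotoxicity. RNA levels, the only quantity measured here, do not give the amount, location or activity of the proteins.

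The promoters of *Bnip3*, *Bax* and *Bcl2l11* are shown because these genes rose in acute Doxo hearts and their windows hold a match to a motif searched. RefSeq promoter windows on GRCm38.p6 were each 300 bases long, from 250 bases before a transcription start to 50 after it. For 9 of the 10 genes 14 windows were searched, and *Pmaip1* was not searched for any motif. The 3 windows are chr7:138909457-138909756 on the minus strand for *Bnip3*, chr7:45466849-45467148 on the minus strand for *Bax*, and chr2:128125788-128126087 on the plus strand for *Bcl2l11*. They read 5′ to 3′ on the strand of the gene, with the E-box CACGTG in capitals in the first pair and the FOXO site GTAAACA in capitals in *Bcl2l11*.
Bnip3: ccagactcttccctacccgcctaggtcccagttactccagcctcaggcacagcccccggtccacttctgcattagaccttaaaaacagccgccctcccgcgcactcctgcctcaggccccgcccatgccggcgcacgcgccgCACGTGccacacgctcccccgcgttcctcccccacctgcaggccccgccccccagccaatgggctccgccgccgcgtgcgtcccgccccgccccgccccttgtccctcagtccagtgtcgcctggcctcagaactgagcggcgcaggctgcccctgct
Bax: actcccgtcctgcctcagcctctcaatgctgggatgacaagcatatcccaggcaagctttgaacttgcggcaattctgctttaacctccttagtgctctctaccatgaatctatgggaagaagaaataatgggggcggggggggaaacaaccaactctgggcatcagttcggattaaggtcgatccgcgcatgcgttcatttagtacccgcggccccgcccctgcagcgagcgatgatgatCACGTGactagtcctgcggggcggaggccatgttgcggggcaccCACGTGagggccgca
Bcl2l11: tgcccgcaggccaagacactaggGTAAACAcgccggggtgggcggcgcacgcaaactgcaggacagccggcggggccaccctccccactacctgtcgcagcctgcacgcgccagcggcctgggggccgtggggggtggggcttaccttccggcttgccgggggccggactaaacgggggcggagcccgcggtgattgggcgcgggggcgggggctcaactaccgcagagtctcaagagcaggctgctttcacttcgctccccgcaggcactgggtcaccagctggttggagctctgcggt
The motifs were searched on both strands. The core of the hypoxia response element, ACGTG, stood in 3 member windows, 1 each of *Bnip3*, *Bax* and *Bbc3*, and in 19.6% of all 32851 windows. Every one of these matches lay within the palindrome CACGTG, which 7.15% of all windows hold. The *Bnip3* match began 108 bases before the start. The FOXO site GTAAACA was found in 1 window each of *Bcl2l11* and *Bbc3* and in 3.65% of all windows. The AP-1 site TGANTCA stood in 0 member windows and in 7.81% of all windows, and the full p53 response element, made of 2 copies of the consensus with up to 13 bases between them, in 0 member windows and in 0.0731% of all. A single copy of the p53 consensus stood in 1 member window, the *Bax* window shown, and in 8.36% of all windows. A match describes letters in the window, and the absence of one says only that these letters are not in it.

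Total counts ranged from 32409622 to 52102850 per heart in the acute study and from 17769886 to 23862287 in the chronic study, so that 3 counts, taken as the smallest detectable value, corresponded to 0.0576 to 0.0926 and 0.126 to 0.169 CPM (reads of a gene relative to the TMM-normalized library total), which covers counting error only. Low counts were mostly even in the acute hearts (median 73.6% of the counts from 1 to 20, against 40.3% in chronic hearts). Whether 1 acute count stands for 1 fragment was not tested, so 3 counts may not mark the same limit in both studies. Placed between the mean of Ctrl (0) and the mean of Doxo (1) over all tested genes, acute Doxo replicate 6 lay at 0.0544, within the Ctrl range of -0.0539 to 0.0649, and the remaining 12 Doxo hearts at 0.452 to 1.45. Acute Doxo-NMN replicate 10 lay at 0.909 against 0.237 to 0.567 for the others of its group, and chronic Doxo replicate 2 at 2.10 against 0.652 to 0.907. These hearts were kept, and results that rest on them are also given without them. Chronic Ctrl replicate 1, at -0.332 against 0.0548 to 0.109 in the other chronic Ctrl hearts, was kept as well. The summed CPM of 5 cardiomyocyte markers was between 24555 and 67024 in acute Doxo and between 50965 and 64102 in Ctrl, with 1 of 5 higher and 3 lower by the test in Doxo. Of the other marker lists in acute Doxo against Ctrl, endothelial and fibroblast markers each had 1 of 4 higher and 1 lower, macrophage markers 1 higher and 2 lower of 4, lymphocyte markers 2 lower of the 2 tested, and atrial markers 0 of 4. Neutrophil markers rose in 3 of 3 tested, from a summed median of 1.33 CPM in Ctrl to 12.8 in Doxo, where the range was 1.40 to 255. Red cell markers fell in 4 of 4, from 474 to 1.25 CPM. Summed atrial markers ranged from 4.20 to 3726 CPM in Ctrl and from 4.48 to 1289 in Doxo, a split that runs through all 3 groups. Of all genes tested, 34.8% were higher and 33.3% lower in acute Doxo against Ctrl. No list of markers had a member that passed in a chronic comparison.

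Whether acute Doxo moved the family was asked first. In acute Doxo hearts 9 of the 10 genes passed the test against Ctrl. *Mcl1*, *Bcl2l1*, *Bax*, *Pmaip1*, *Bcl2l11*, *Bid* and *Bnip3* were higher, *Bcl2* and *Bak1* were lower, and *Bbc3* did not pass. The test was edgeR's quasi-likelihood F-test at a Benjamini-Hochberg adjusted p under 0.05, and of all 14240 genes tested 34.8% passed as higher and 33.3% as lower. With a fold change of at least 1.5 as well, 6 members were higher and 0 lower, against 14.7% and 15.4% of all genes. The median log2 fold change of the 10 genes was 0.78, and that of all genes tested was -0.0016. In whole-heart RNA a change in the make-up of cells and a change in RNA per cell cannot be told apart.

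**Figure D1:**
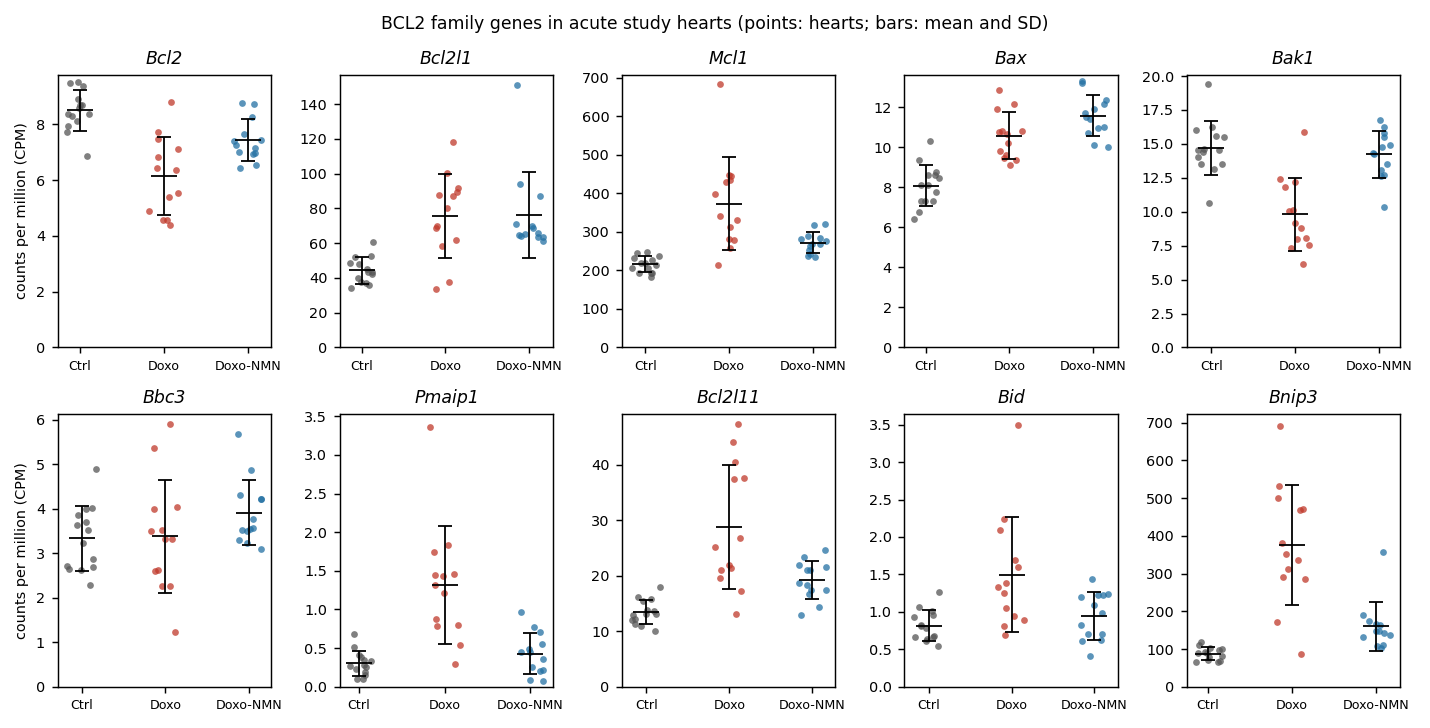
Each panel plots 1 of the 10 BCL2 family genes in CPM (vertical axis) for every acute heart, with the groups Ctrl (14), Doxo (13) and Doxo-NMN (13) along the horizontal axis, and bars at the mean with the SD. *Bnip3* in Doxo spans 86.7 to 692 CPM above a Ctrl range of 66.2 to 119, *Bak1* lies lower in Doxo than in the other groups, and the 3 groups of *Bbc3* share most of their range.

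Among the anti-apoptotic genes, *Mcl1* encodes a short-lived protector on which adult cardiomyocytes depend. The gene lies at chr3:95658788-95663176 on the plus strand (GRCm38). Its level ranged from 184 CPM through a median of 216 to 248 in Ctrl, from 214 through 342 to 683 in Doxo, and from 235 through 269 to 320 in Doxo-NMN. In Doxo 12 of 13 hearts lay above every Ctrl heart, the exception being replicate 6, and in Doxo-NMN 10 of 13 did. *Mcl1* rose in Doxo by 0.79 ± 0.11 on the log2 scale (SE, adjusted p = 4.09e-08), which is 1.73-fold. Doxo-NMN was lower than Doxo by a log2 difference of -0.46 ± 0.11 (adjusted p = 0.000581), with 0.34 ± 0.11 remaining above Ctrl (adjusted p = 0.0160).

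*Bcl2l1*, at chr2:152780668-152831728 on the minus strand, encodes BCL-XL, which binds BAX, BAK and several BH3-only proteins. Its level ran from 34.1 through a median of 43.3 to 61.0 CPM in Ctrl, from 33.6 through 80.4 to 118 in Doxo, and from 61.3 through 65.7 to 151 in Doxo-NMN. Doxo-NMN hearts were all above the highest Ctrl heart, as 13 of 13, whereas 10 of 13 Doxo hearts were, with replicate 6 the lowest of all. Of all genes tested, 0.815% had every Doxo-NMN heart above every Ctrl heart, and *Bcl2l1* was the 1 member among them. The rise over Ctrl was 0.77 ± 0.15 in Doxo (adjusted p = 1.57e-05) and 0.78 ± 0.15 in Doxo-NMN (adjusted p = 0.000145). Between Doxo-NMN and Doxo the difference was 0.01, with a 95% interval of -0.29 to 0.31 (adjusted p = 0.963), and its sign turned without Doxo replicate 6 and Doxo-NMN replicate 10 (-0.18). Within the hearts high in atrial markers (5 Doxo, 4 Doxo-NMN) it was -0.36 and passed (adjusted p = 0.0265).

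*Bcl2*, the founding member and an inhibitor of apoptosis, spans chr1:106538178-106714274 on the minus strand. It had 6.87, 8.49 and 9.53 CPM as lowest, median and highest level in Ctrl, 4.38, 6.36 and 8.81 in Doxo, and 6.42, 7.26 and 8.77 in Doxo-NMN. Below every Ctrl heart lay 9 of 13 Doxo hearts and 2 of 13 Doxo-NMN hearts. *Bcl2* fell by 0.46 in Doxo on the log2 scale (SE 0.09, adjusted p = 1.16e-05). It was 0.27 ± 0.09 higher in Doxo-NMN than in Doxo (adjusted p = 0.00899), and Doxo-NMN differed from Ctrl by -0.19, which did not pass (adjusted p = 0.0870). The protectors thus moved in unlike directions with Doxo, with *Mcl1* and *Bcl2l1* higher and *Bcl2* lower.

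The effectors moved in opposite directions as well. *Bax* encodes the cytosolic effector that moves to mitochondria on activation and lies at chr7:45461697-45466898 on the minus strand. It was measured at 6.44 to 10.3 CPM (median 8.11) in Ctrl, 9.12 to 12.9 (median 10.7) in Doxo and 10.02 to 13.3 (median 11.5) in Doxo-NMN. The ranges of Ctrl and Doxo overlap, with 7 of 13 Doxo hearts above every Ctrl heart, and 11 of 13 Doxo-NMN hearts lay above them. *Bax* rose 1.31-fold in Doxo, a log2 change of 0.39 ± 0.06 (adjusted p = 2.03e-06), and by 0.52 ± 0.06 in Doxo-NMN (adjusted p = 3.17e-07). Doxo-NMN and Doxo differed by 0.13, with a 95% interval of -0.0030 to 0.26 (adjusted p = 0.0933).

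*Bak1* encodes the effector that resides in the mitochondrial membrane and lies at chr17:27019810-27029009 on the minus strand. Its lowest, median and highest levels were 10.7, 14.5 and 19.4 CPM in Ctrl, 6.15, 9.18 and 15.9 in Doxo, and 10.4, 14.4 and 16.8 in Doxo-NMN. Below all Ctrl hearts were 9 of 13 Doxo hearts, and the highest Doxo value was that of replicate 6. *Bak1* fell by 0.58 on the log2 scale in Doxo (SE 0.10, adjusted p = 4.85e-06), just inside the 1.5-fold limit, and by 0.66 without replicate 6 (adjusted p = 7.19e-08), past it. Doxo-NMN was higher than Doxo by 0.53 ± 0.10 (adjusted p = 6.32e-05) and differed from Ctrl by -0.05 (95% interval -0.25 to 0.16, adjusted p = 0.762).

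Of the exonic bases of *Bak1*, 614 (25.5%) are shared with *Ggnbp1* on the opposite strand, and whether the counting used strand is not given in the sources used here. *Ggnbp1* had median levels of 19.9 CPM in Ctrl, 32.6 in Doxo and 28.6 in Doxo-NMN, so its medians ran opposite to those of *Bak1* in Doxo. As a description with no test, the ratio of *Bax* to *Bak1* CPM had a median of 0.570 in Ctrl (0.418 to 0.662), 1.16 in Doxo (0.575 to 1.94) and 0.808 in Doxo-NMN (0.655 to 0.965). The ratio of *Bax* to *Bcl2* CPM had a median of 0.985 in Ctrl, with a highest value of 1.18, and medians of 1.71 in Doxo and 1.57 in Doxo-NMN, with lowest values of 1.16 and 1.14.

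Among the BH3-only genes, *Pmaip1* encodes NOXA, which binds MCL1 and is at chr18:66458533-66465565 on the plus strand. It was a rare transcript, with 4 to 32 counts per Ctrl heart and 12 to 110 per Doxo heart. These counts were even in 39 of 40 acute hearts, and how many fragments stand behind them was not tested. With all acute counts divided by 2, the same numbers of members, 6, 3 and 2, were called in the acute comparisons. Its levels were 0.0940, 0.270 and 0.686 CPM at the lowest, median and highest Ctrl heart, 0.299, 1.31 and 3.37 in Doxo, and 0.0761, 0.444 and 0.972 in Doxo-NMN. In Doxo 11 of 13 hearts exceeded every Ctrl heart and in Doxo-NMN 3 of 13 did. The log2 rise in Doxo was 2.10 ± 0.33, or 4.29-fold (adjusted p = 7.74e-07), and Doxo-NMN was lower than Doxo by -1.60 ± 0.33 (adjusted p = 0.000127). Doxo-NMN stood 0.50 from Ctrl, which did not pass (adjusted p = 0.274).

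*Bcl2l11* encodes BIM, an activator of BAX and BAK, at chr2:128126038-128162547 on the plus strand. Its Ctrl hearts lay between 9.99 and 18.02 CPM (median 13.1), Doxo hearts between 13.2 and 47.3 (median 25.3), and Doxo-NMN hearts between 13.01 and 24.7 (median 18.8). Above all Ctrl hearts were 11 of 13 Doxo and 8 of 13 Doxo-NMN hearts, so each pair of groups overlapped. The gene rose by 1.09 ± 0.14 in Doxo (adjusted p = 3.44e-08), a 2.13-fold change. It was lower in Doxo-NMN than in Doxo by -0.58 ± 0.15 (adjusted p = 0.00111) and above Ctrl by 0.51 ± 0.14 (adjusted p = 0.00749). Without Doxo replicate 6 the difference between Doxo-NMN and Doxo was -0.64 (adjusted p = 0.000110), which passes the 1.5-fold limit.

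*Bid* links death receptors to mitochondria, since caspase 8 cleaves its protein into the active tBID. The gene lies at chr6:120891930-120916853 on the minus strand and had 22 to 55 counts per Ctrl heart. Levels were 0.550 to 1.27 CPM in Ctrl (median 0.795), 0.690 to 3.49 in Doxo (median 1.34) and 0.406 to 1.44 in Doxo-NMN (median 0.984). The highest value belonged to Doxo replicate 5, and 7 of 13 Doxo hearts and 1 of 13 Doxo-NMN hearts were above all Ctrl hearts. *Bid* rose by 0.87 ± 0.20 in Doxo (adjusted p = 0.000296) and was lower in Doxo-NMN than in Doxo by -0.66 ± 0.21 (adjusted p = 0.00727). Without Doxo replicate 5 the latter was -0.48 (adjusted p = 0.0300), inside the 1.5-fold limit. With *Bcl2l13* on the other strand, *Bid* shares 628 exonic bases (17.7%). *Bcl2l13* had far higher median levels, 95.3 CPM in Ctrl, 73.3 in Doxo and 107 in Doxo-NMN, and was lowest in Doxo, where *Bid* was highest. Whether its reads entered the *Bid* counts was not tested.

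*Bbc3* encodes PUMA, which binds all of the protectors and is a classical target of p53, at chr7:16308393-16318205 on the plus strand. It was at 2.28, 3.38 and 4.89 CPM (lowest, median, highest) in Ctrl, 1.24, 3.33 and 5.89 in Doxo and 3.09, 3.56 and 5.67 in Doxo-NMN. The 13 Doxo hearts spread to both sides of Ctrl, with 3 below every Ctrl heart and others above. The log2 difference between Doxo and Ctrl was 0.02, with a 95% interval of -0.28 to 0.33 (adjusted p = 0.897), that between Doxo-NMN and Doxo 0.21 (adjusted p = 0.258), and that between Doxo-NMN and Ctrl 0.23 (adjusted p = 0.263).

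*Bnip3* encodes a protein of the outer mitochondrial membrane that binds LC3 and directs mitochondria to autophagy, and lies at chr7:138890836-138909519 on the minus strand. Its level was 66.2 through 88.6 to 119 CPM in Ctrl, 86.7 through 352 to 692 in Doxo and 104 through 147 to 358 in Doxo-NMN. Apart from replicate 6, every Doxo heart lay above every Ctrl heart (12 of 13), and 10 of 13 Doxo-NMN hearts did, with replicate 10 the highest. *Bnip3* rose by 2.10 ± 0.20 in Doxo, 4.27-fold (adjusted p = 7.49e-11). Doxo-NMN was lower than Doxo by -1.23 ± 0.20 (adjusted p = 5.99e-06) and higher than Ctrl by 0.87 ± 0.19 (adjusted p = 0.000959). An antisense gene, *Gm45507*, shares 504 (22.3%) of the exonic bases of *Bnip3*.

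Whether NMN altered the Doxo response was the question of the comparison of Doxo-NMN with Doxo. In it 7 of the 10 genes passed, *Bcl2* and *Bak1* as higher and *Mcl1*, *Pmaip1*, *Bcl2l11*, *Bid* and *Bnip3* as lower, against 25.7% of all genes higher and 27.4% lower. With the 1.5-fold limit 0 were higher and 3 lower (*Pmaip1*, *Bid* and *Bnip3*), against 8.17% and 8.88%. The members' median log2 difference was -0.22 and that of all genes -0.00083. Each of these 7 had moved in the opposite direction in Doxo against Ctrl, but both comparisons use the same Doxo hearts, so that a chance excess in Doxo enters both with opposite sign. *Bax* and *Bcl2l1* did not pass here and remained above Ctrl in Doxo-NMN. Without Doxo replicate 6, *Bak1* (0.61, adjusted p = 1.13e-06) and *Bcl2l11* also passed the 1.5-fold limit, giving 5 genes. The share of all genes in that fit is not given here. Of the markers, neutrophil genes were lower in Doxo-NMN than in Doxo in 3 of 3, red cell genes in 3 of 4 and endothelial genes in 2 of 4. Cardiomyocyte markers were higher in 3 of 5 and lower in 1, fibroblast markers higher in 1 of 4 and lower in 3, macrophage markers higher in 2 of 4, and 0 of the lymphocyte or atrial markers passed. Their part in the values of the family was not tested.

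In Doxo-NMN against Ctrl 5 of the 10 genes were higher, namely *Bcl2l1*, *Mcl1*, *Bax*, *Bcl2l11* and *Bnip3*, and 0 lower, where 15% of all genes passed as higher and 11.1% as lower. With the 1.5-fold limit 2 were higher, *Bcl2l1* and *Bnip3*, and 0 lower, against 3.31% and 3.79% of all genes. The median log2 fold change of the members was 0.42 and that of all genes 0.0065. Within the low atrial hearts *Bnip3* did not pass (0.77, adjusted p = 0.0887), and within the high atrial hearts *Bcl2l1* was at 0.56, under the 1.5-fold limit. Neutrophil markers were higher than in Ctrl in 3 of 3, from a summed median of 1.33 to 8.06 CPM, and red cell markers lower in 4 of 4. Endothelial markers were lower in 2 of 4, fibroblast markers in 3 of 4 and macrophage markers in 1 of 4, cardiomyocyte markers had 1 of 5 higher and 1 lower, and 0 lymphocyte or atrial markers passed. The part of these cells in the members' values was not tested.

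**Figure D2:**
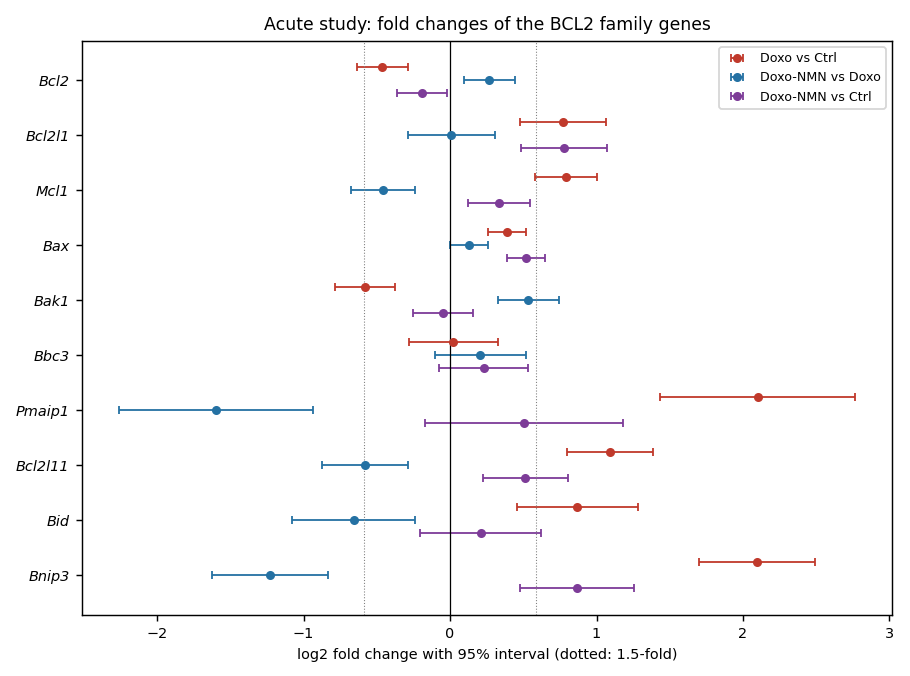
Log2 fold changes from edgeR (horizontal axis) of the 10 genes (vertical axis) in the 3 acute comparisons, with lines for the 95% intervals and dotted lines at the 1.5-fold limit. *Bnip3* and *Pmaip1* lie near 2.1 in Doxo against Ctrl and at -1.23 and -1.60 in Doxo-NMN against Doxo, whereas *Bcl2l1* lies at 0.01 in the latter.

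The rest of the pathway was followed through lists of genes. Beside their counts stand the shares of all genes tested. These were 34.8% higher and 33.3% lower in acute Doxo against Ctrl, and 25.7% and 27.4% in Doxo-NMN against Doxo. Of 17 other BCL2 family genes 11 could be tested, and in acute Doxo 2 passed as higher and 4 as lower. *Bmf*, a BH3-only gene, rose from a median of 5.88 CPM in Ctrl to 13.6 in Doxo (log2 change 1.40, adjusted p = 3.58e-07). The lower genes past the 1.5-fold limit were *Bcl2l12* (-0.86, adjusted p = 3.66e-06), the effector-like *Bok* (-1.03, adjusted p = 9.69e-06) and the BH3-only gene *Hrk* (-1.24, adjusted p = 6.41e-05). Between Doxo-NMN and Doxo 5 of the 11 were higher and 2 lower, among them *Bcl2l12* (0.86, adjusted p = 1.86e-05) and *Bmf* (-1.30, adjusted p = 8.61e-06), whose Doxo-NMN median was 5.74 CPM.

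Downstream of mitochondria, 17 genes of the apoptosome, the caspases and their inhibitors were tested. In acute Doxo 4 were higher and 9 lower, against 34.8% and 33.3% of all genes. *Birc3*, an inhibitor of apoptosis, rose by 1.51 (adjusted p = 2.48e-08), *Diablo*, whose protein counters such inhibitors, by 0.72 (adjusted p = 5.51e-06), and the executioner caspase gene *Casp6* fell by 0.66 (adjusted p = 2.38e-06). In Doxo-NMN against Doxo 6 were higher and 5 lower, with *Birc3* at -1.27 (adjusted p = 4.68e-06) and *Birc5* at -1.29 (adjusted p = 0.000430).

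Upstream of *Bid*, 4 of 7 death receptor genes were higher in acute Doxo and 2 lower, against 34.8% and 33.3% of all genes. The receptors *Fas* (1.26, adjusted p = 2.09e-08), *Tnfrsf1a* (1.18, adjusted p = 8.21e-08) and *Tnfrsf10b* (1.96, adjusted p = 1.11e-07) rose, *Fas* from a median of 14.6 to 32.8 CPM. In Doxo-NMN against Doxo 2 of 7 were higher and 4 lower, with *Fas* at -0.86 (adjusted p = 5.42e-05), *Tnfrsf1a* at -1.11 (adjusted p = 2.42e-06) and *Tnfrsf10b* at -1.81 (adjusted p = 3.79e-06).

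Of 9 tested genes for regulators of the members 4 were higher and 2 lower in acute Doxo, against 34.8% and 33.3% of all genes. *Myc* rose from a median of 3.20 to 18.4 CPM (2.98, adjusted p = 8.26e-10), *Atf4*, a factor of the integrated stress response, from 62.2 to 133 CPM (1.47, adjusted p = 6.72e-08), and *E2f1* fell by 1.36 (adjusted p = 1.35e-05). *Trp53*, the gene of p53, was lower (-0.34, adjusted p = 0.00221). *Foxo1* (0.11, adjusted p = 0.105) and *Foxo3* (0.10, adjusted p = 0.415) did not pass. In Doxo-NMN against Doxo 1 was higher and 4 lower, with *Myc* at -2.05 (adjusted p = 3.79e-06) and *Atf4* at -1.23 (adjusted p = 9.40e-06). Against Ctrl, Doxo-NMN had 1 higher and 3 lower of the other BCL2 family genes, 0 and 4 of the apoptosome genes, 0 and 1 of the death receptor genes and 3 and 1 of the regulators. Of all genes, 15% were higher and 11.1% lower in that comparison. The known p53 targets differed from each other. *Cdkn1a*, the cell cycle inhibitor p21, rose in Doxo by 1.54 ± 0.17 (adjusted p = 7.16e-10) and was lower in Doxo-NMN than in Doxo by -1.24 ± 0.17 (adjusted p = 8.42e-07), whereas *Mdm2* differed from Ctrl by 0.07 in Doxo (adjusted p = 0.253).

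Doxo hearts differed in the strength of the *Cdkn1a* response, from 56.4 CPM in replicate 6 through a median of 192 to 307 in replicate 4, and 12 of 13 exceeded every Ctrl heart. Each of the 10 genes was set against *Cdkn1a* over the 13 acute Doxo hearts, on log2 CPM, with permutation tests of 100000 resamples adjusted over the 10. *Bnip3* had a Pearson r of 0.946 (permutation p = 1e-05, the smallest these resamples can give, adjusted p = 1e-04) and a Spearman rho of 0.802 (permutation, adjusted p = 0.0087), and r was 0.794 without replicates 6 and 7, the hearts farthest from the *Cdkn1a* median. *Bbc3* ran the other way, with r = -0.612 (permutation, adjusted p = 0.0544), rho = -0.868 (adjusted p = 0.0024) and r = -0.731 without replicates 6 and 7. Without replicate 6 alone, r was -0.778 for *Bbc3* (permutation, adjusted p = 0.0217) and 0.894 for *Bnip3* (permutation, adjusted p = 0.0029).

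For *Pmaip1* r was 0.795 (permutation, adjusted p = 0.0068) and rho 0.709 (adjusted p = 0.0284), but r was 0.405 without replicates 6 and 7, so the linear relation rests on those hearts. The same holds for *Bak1*, with r = -0.638 (permutation, adjusted p = 0.0452), rho = -0.357 and r = -0.130 without them. *Mcl1* had r = 0.688 (permutation, adjusted p = 0.0304) and rho = 0.566 (adjusted p = 0.0773), with 0.491 without them, and its r was 0.544 without replicate 6 (permutation, adjusted p = 0.154). For *Bid*, rho was 0.659 (permutation, adjusted p = 0.0414) and r 0.533 (adjusted p = 0.0861). For *Bax* (r = 0.510), *Bcl2l11* (0.586), *Bcl2l1* (0.302) and *Bcl2* (-0.163) neither coefficient passed. Over all genes tested r with *Cdkn1a* ran from -0.776 at the 5th to 0.820 at the 95th percentile in these hearts, so values of this size were frequent, and *Bnip3* lay above that range.

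**Figure D3:**
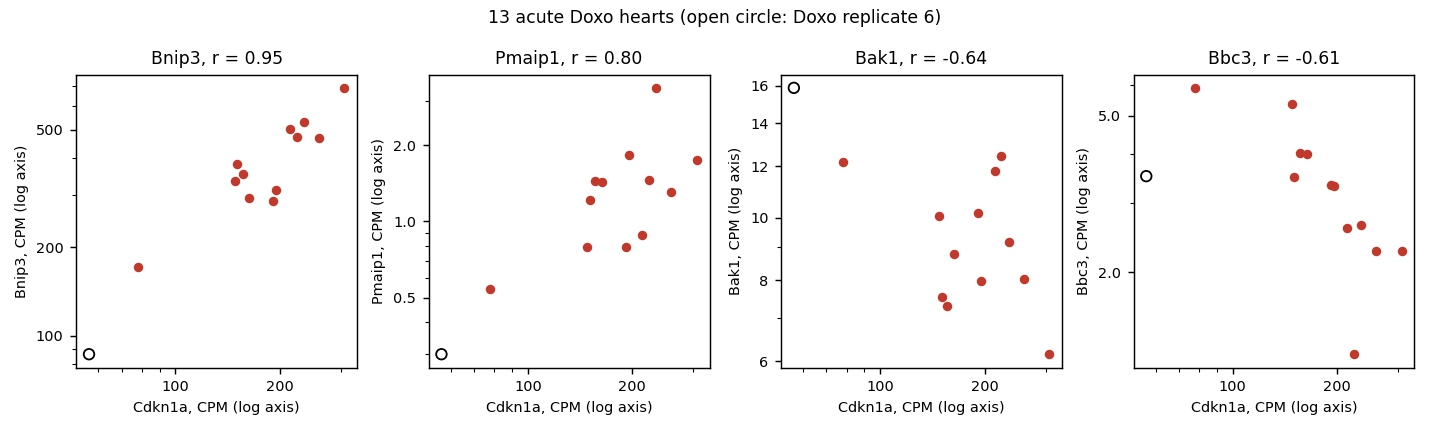
*Bnip3*, *Pmaip1*, *Bak1* and *Bbc3* (vertical axes, CPM, log scale) against *Cdkn1a* (horizontal axis, CPM, log scale) in the 13 acute Doxo hearts, 1 point per heart, with replicate 6 as the open circle. *Bnip3* climbs with *Cdkn1a* (r = 0.946) and *Bbc3* declines (r = -0.612), while the relation of *Bak1* depends on replicate 6 and replicate 7.

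Levels can be compared between genes only per length of exon. In acute Ctrl hearts *Mcl1* was highest at 63.0 ± 6.02 CPM per kb (SD, n = 14), followed by *Bnip3* at 38.8 ± 7.42, *Bcl2l1* at 9.68 ± 1.66, *Bak1* at 6.10 ± 0.817, *Bax* at 5.13 ± 0.658, *Bcl2l11* at 1.68 ± 0.277, *Bbc3* at 1.57 ± 0.344, *Bcl2* at 0.928 ± 0.0797, *Bid* at 0.230 ± 0.0576 and *Pmaip1* at 0.111 ± 0.0595. The ranges of neighbours overlapped for *Bcl2l1* and *Bak1*, *Bak1* and *Bax*, *Bcl2l11* and *Bbc3*, and *Bid* and *Pmaip1*. In Doxo the mean level of *Bnip3*, 166 CPM per kb, was above that of *Mcl1*, 109 CPM per kb. The order in chronic Ctrl hearts also began with *Mcl1* (53.5 CPM per kb) and *Bnip3* (24.2), with *Bax* next at 12.9.

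By the likeness of log2 CPM over the 40 acute hearts, the gene outside the family nearest to *Bnip3* was *AC160336.1* (r = 0.981), to *Bak1* *Tomm5* (0.944), to *Mcl1* *Eif1* (0.931) and to *Bcl2l11* *Mylip* (0.920). *Pmaip1* was nearest to *Abi2* (0.890), *Bcl2l1* to *Ppp1r13l* (0.879), *Bax* to *Ly6a* (0.806), *Bid* to *Rela* (0.799), *Bcl2* to *Wnt9a* (0.791) and *Bbc3* to *Gcfc2* (0.705). These coefficients take in differences between the groups as well as between hearts.

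In the chronic study, which asks about the heart after repeated lower doses, 0 of the 9 tested genes passed in any comparison. edgeR called 0.0602% of 14960 genes in Doxo against Ctrl, 0% in Doxo-NMN against Doxo and 0.0401% in Doxo-NMN against Ctrl. At an unadjusted p under 0.05 there were 2 members in Doxo against Ctrl (7.85% of all genes), 0 in Doxo-NMN against Doxo (2.95%) and 0 in Doxo-NMN against Ctrl (4.73%). DESeq2 and limma voom called 0 members in each. The members' median log2 differences were 0.15, -0.16 and 0.01, where those of all genes were -0.00074, 0.0032 and 0.0054. None of the 4 pathway lists had a gene that passed, with unadjusted counts of up to 2 per list.

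**Figure D4:**
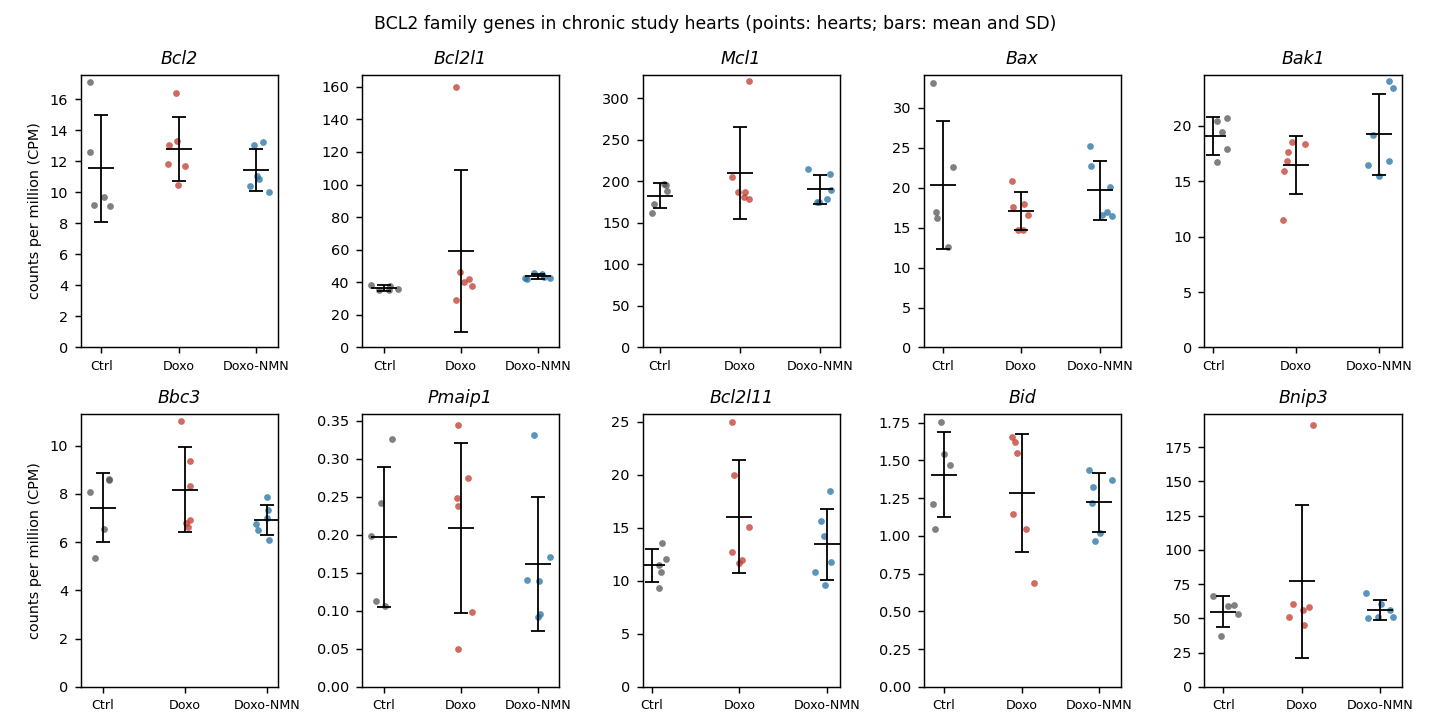
The 10 genes in CPM (vertical axes) in every chronic heart, by group along the horizontal axis (Ctrl 5, Doxo 6, Doxo-NMN 6), with bars at the mean with the SD. Doxo replicate 2 stands above the other Doxo hearts for *Bcl2l1* (160 CPM), *Mcl1* (320) and *Bnip3* (191), and all 6 Doxo-NMN hearts lie above the 5 Ctrl hearts for *Bcl2l1*.

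The 2 members at an unadjusted p under 0.05 were *Bcl2l1* and *Bcl2l11*. *Bcl2l1* was at 35.1, 37.8, 35.04, 38.6 and 36.0 CPM in Ctrl replicates 1 to 5. In Doxo it ran from 28.9 through a median of 41.3 to 160, and in Doxo-NMN from 41.7 through 42.9 to 45.8. All 6 Doxo-NMN hearts were above all Ctrl hearts, as for 0.421% of all genes tested, whereas Doxo hearts lay on both sides. The log2 difference between Doxo and Ctrl was 0.70 ± 0.31 (edgeR, p = 0.0361, adjusted p = 0.618) and 0.10 without Doxo replicate 2 (adjusted p = 0.999). That between Doxo-NMN and Ctrl was 0.25 (p = 0.418, adjusted p = 0.999), in a fit whose spread includes Doxo replicate 2, and its adjusted p was 0.57 without that heart.

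*Bcl2l11* was at 9.31, 12.1, 13.6, 11.5 and 10.9 CPM in chronic Ctrl hearts, 11.7 through 13.9 to 24.99 in Doxo and 9.57 through 13.03 to 18.5 in Doxo-NMN. The groups overlap, and the highest Doxo heart was again replicate 2. Doxo and Ctrl differed by 0.48 ± 0.20 (edgeR, p = 0.0256, adjusted p = 0.597) and by 0.31 without that heart.

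*Bnip3* was at 36.9, 59.3, 59.5, 52.9 and 65.9 CPM in chronic Ctrl, from 45.3 through 57.2 to 191 in Doxo and from 50.3 through 53.7 to 68.2 in Doxo-NMN. Apart from replicate 2, the Doxo hearts averaged 54.2 ± 6.18 CPM (SD, n = 5), within the Ctrl range. The difference between Doxo and Ctrl was 0.49 ± 0.29 (edgeR, adjusted p = 0.696), and -0.02 without replicate 2. *Mcl1* was at 161, 197, 172, 188 and 195 CPM in Ctrl and from 179 through 187 to 320 in Doxo, with a difference of 0.20 (adjusted p = 0.715) that became 0.04 without replicate 2. In *Cdkn1a* that heart was at 117 CPM, in a Doxo group with a median of 23.7 and beside Ctrl hearts of 15.4 to 17.97.

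*Bax* in chronic Ctrl was at 33.1, 12.6, 16.2, 22.6 and 16.98 CPM, and *Bcl2* at 17.2, 9.20, 9.14, 9.68 and 12.6, with replicate 1 the highest of both. *Bax* ran from 14.6 to 20.9 CPM in Doxo and from 16.4 to 25.2 in Doxo-NMN. Their differences between Doxo and Ctrl were -0.25 for *Bax* and 0.15 for *Bcl2* (edgeR, adjusted p = 0.754 and 0.820). *Bak1*, *Bbc3* and *Bid* had differences of -0.21, 0.14 and -0.12, with adjusted p of 0.709 to 0.919. *Pmaip1* had 1 to 8 counts per chronic heart, near the smallest detectable value, and was not tested. Between Doxo-NMN and Doxo the differences lay between -0.45 for *Bnip3* and 0.22 for *Bak1*, and each adjusted p was 0.999.

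The difference between the acute and the chronic Doxo effect was tested directly, as an interaction in edgeR over Ctrl and Doxo hearts, both studies in 1 fit. Of the 10 genes, *Bnip3*, *Pmaip1* and *Bax* had a higher acute effect and *Bcl2* a lower one, where 11% of 14965 genes passed as higher and 8.33% as lower. The acute minus the chronic log2 change was 1.60 ± 0.39 for *Bnip3* (adjusted p = 0.00718), 2.03 ± 0.67 for *Pmaip1* (adjusted p = 0.0309), 0.64 ± 0.18 for *Bax* (adjusted p = 0.0140) and -0.61 ± 0.19 for *Bcl2* (adjusted p = 0.0235). For *Bax* and *Bcl2* the chronic changes of -0.25 and 0.15 lay on the other side of 0 from the acute ones of 0.39 and -0.46. Neither chronic change passed, and without chronic Ctrl replicate 1 they were -0.0019 for *Bax* and 0.34 for *Bcl2*. The interaction was not fitted without that heart.

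*Mcl1* (0.59, adjusted p = 0.0512), *Bid* (0.99, adjusted p = 0.0540), *Bcl2l11* (0.61, adjusted p = 0.126) and *Bak1* (-0.38, adjusted p = 0.163) did not pass, nor did *Bbc3* (-0.12, adjusted p = 0.797). For *Bcl2l1* the difference was 0.06, with a 95% interval of -0.64 to 0.77 (adjusted p = 0.913). In either direction 4 members and 19.3% of all genes passed. The counts were 7 (30.8% of all genes) without acute Doxo replicate 6, 8 (26.5%) without chronic Doxo replicate 2 and 9 (35.6%) without both, when *Bbc3* was the 1 member that did not pass, so the share of all genes rose as well. By limma voom with sample weights 8 members and 46.7% of all genes passed. *Pmaip1* entered this test although its chronic counts were 1 to 6 in the Ctrl and Doxo hearts. Dose schedule, time of collection, age, vendor, sequencing site and depth all differ between the studies and cannot be told apart.

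**Figure D5:**
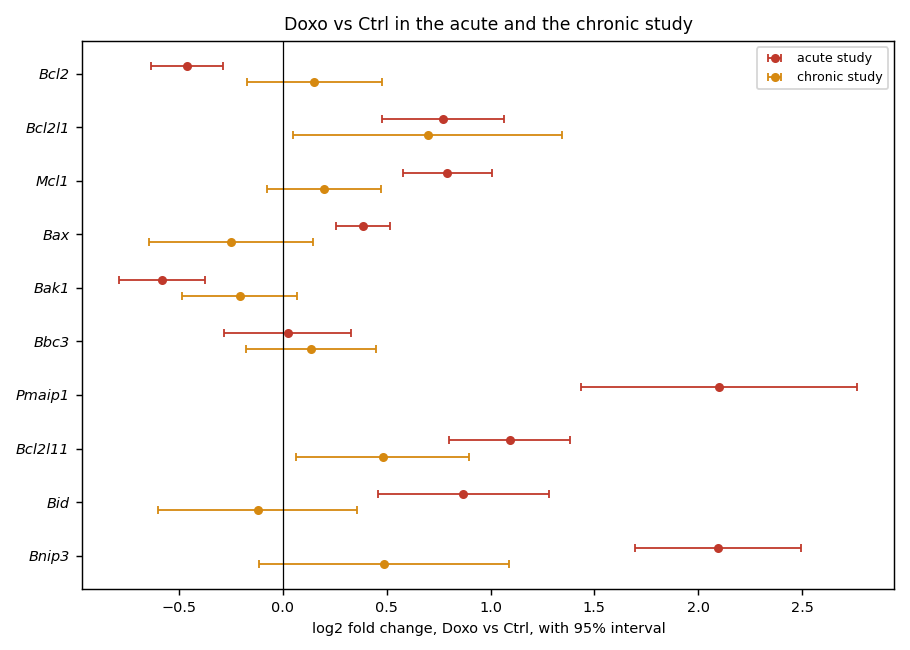
Log2 fold change of Doxo against Ctrl (horizontal axis) for each gene (vertical axis), acute and chronic study side by side, with lines for the 95% intervals from edgeR. The acute value lies to the right of the chronic one by 1.60 for *Bnip3*, both lie near 0.7 to 0.8 for *Bcl2l1*, and *Pmaip1* has no chronic value because it did not pass the filter.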

How the data were processed

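Poly(A) RNA of 57 mouse hearts (40 acute, 17 chronic) was sequenced single-end by the authors, mapped to mm10 with STAR and counted per gene with featureCounts. Per the labels' processing notes the versions were STAR 2.7.3a and featureCounts 2.0.0. The annotation and strand setting are not given in the sources used here. The deposited values are the authors' raw counts per gene, whole numbers without normalization. Even numbers made up a median of 73.6% of an acute heart's low counts (1 to 20) and 40.3% of a chronic heart's. Columns of per-sample values without a sample numbered 0. Groups and replicate numbers come from the sample labels. No label says how the hearts of a group were processed, so p-values measure the spread between these hearts. No pair of hearts looked like 1 library deposited again (lowest chi-square per gene 10.4 acute, 5.49 chronic).

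In R 4.3.3, low genes were removed with filterByExpr, counts were TMM-normalized and edgeR 4.0.16 fitted 1 quasi-likelihood model per study over its 3 groups. P-values were adjusted (Benjamini-Hochberg) over all tested genes. Genes passed at an adjusted p under 0.05, and in the acute study counts are also given at a fold change of at least 1.5. CPM used TMM-scaled totals. For Pearson r, log2 CPM had a prior count of 2. Python 3.11.15 with scipy 1.17.1 gave permutations and ratios. Exon lengths and overlaps come from GENCODE M21, and promoter windows and starts from RefSeq on GRCm38.p6.

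The alternatives were DESeq2 1.42.0, limma 3.58.1 voom with sample weights, other normalizations and low-count filters, only the groups compared, the replicate number as a block, other fold limits, acute counts divided by 2, the low and high atrial hearts (limit 100 CPM of *Myl4*), and leaving out each heart. Fits without both outlying hearts, and the interaction fit without chronic Doxo replicate 2 alone, were chosen after seeing the data. The named genes are the 10 members, *Cdkn1a*, *Mdm2*, up to 3 genes per list, direction and acute comparison with the smallest adjusted p past the fold limit, and the gene most like each member. *Ggnbp1*, *Bcl2l13*, *Gm45507* and *Myl4* were named for overlap or as a marker, and *Trp53*, *Foxo1* and *Foxo3* as known regulators of members. The members and lists were chosen with earlier results of these data known. The calculations were tested on simulated data. Blood and the other assays of the study were not analysed here.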

Additional observations from a re-analysis of the deposited data

Results flagged for a closer look

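In the chronic Doxo group, replicate 2 lay far from the other 5 hearts for *Bcl2l1* at 160 CPM, for *Bnip3* at 191 CPM and for *Mcl1* at 320 CPM, each by Dixon's ratio at the 95% level. The other Doxo hearts averaged 39.1 ± 6.50, 54.2 ± 6.18 and 188 ± 10.3 CPM for these genes (SD, n = 5). A ratio of this size was found in 3 of 27 sets of values tested, where chance marks about 1 in 20, and all 3 belong to this heart. All 27 sets were chronic groups of the members other than *Pmaip1*, and no acute group was tested in this way. It was also the highest of its group for *Bcl2l11*, *Bbc3* and *Cdkn1a* and the lowest for *Bcl2*, *Bax* and *Bak1*.

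The Doxo effect differed between the acute and the chronic study, by the interaction test of edgeR, for *Bcl2* (-0.61 on the log2 scale), *Bax* (0.64), *Pmaip1* (2.03) and *Bnip3* (1.60). The differences kept their sign without acute Doxo replicate 6 and without chronic Doxo replicate 2, the hearts that were left out in turn. These genes are listed because they passed, so a kept sign is weak evidence. Without chronic Doxo replicate 2 the chronic change of *Bnip3* moved from 0.49 to -0.02, away from the acute one. The interaction was not fitted without chronic Ctrl replicate 1.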

How the results depend on the processing

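The number of members called, past the 1.5-fold limit in the acute study, was 6 in Doxo against Ctrl and stayed at 6 to 7 when single hearts were left out, but was 3 at a 2-fold limit. The share of all genes is not given for the 2-fold limit, the atrial hearts or the acute fits with hearts left out. In Doxo-NMN against Doxo the number of members was 3, ranged from 2 to 5 with single hearts left out, and was 5 without Doxo replicate 6 and Doxo-NMN replicate 10. With no fold limit it was 7, against 25.7% of all genes higher and 27.4% lower. In Doxo-NMN against Ctrl it was 2, in every fit that left out 1 heart also 2, but 0 at a 2-fold limit and 1 in both the low and the high atrial hearts. With no fold limit it was 5, against 15% of all genes higher and 11.1% lower. The call of *Bid* in Doxo-NMN against Doxo was lost in the low (adjusted p = 0.0565) and in the high atrial hearts (adjusted p = 0.103), with fewer hearts in each. In Doxo-NMN against Ctrl, *Bnip3* was not called in the low (0.77, adjusted p = 0.0887) and *Bcl2l1* not in the high atrial hearts (0.56, under the fold limit). In the chronic study 0 members were called in each comparison under every alternative, except 2 at an unadjusted p under 0.05 in Doxo against Ctrl. The difference between the acute and chronic effects passed for 4 members (19.3% of all genes). It passed for 7 without acute Doxo replicate 6 (30.8%) and for 8 without chronic Doxo replicate 2 (26.5%), and no other heart was left out here. By voom with sample weights it passed for 8 (46.7%), and without both outlying Doxo hearts for 9 (35.6%). Of the relations with *Cdkn1a*, 4 passed by Pearson's r, 2 without Doxo replicate 6 (*Bnip3* and *Bbc3*) and 2 without the farthest 2 hearts.

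With the replicate number as a replicate block the counts were 7, 3 and 2 in the acute comparisons and 0 in each chronic one. No label says what the numbers stand for. Deviations from the group mean had r over 0.1 in 20 of 39 acute and 3 of 16 chronic same-numbered pairs. In acute hearts the median r was 0.117 for same-numbered pairs and -0.0302 for pairs of other numbers. In chronic hearts these medians were -0.0095 and 0.0015. Whether same-numbered acute hearts shared a step was not tested. *Bak1* in chronic Doxo-NMN against Ctrl was -0.0389 under the replicate block.

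Signs turned for values that passed no test in the fit reported, some of them not near 0, such as chronic *Bnip3* (0.49 in Doxo against Ctrl, -0.45 in Doxo-NMN against Doxo) and chronic *Bcl2l1* (-0.44 in Doxo-NMN against Doxo). *Bbc3* in acute Doxo against Ctrl was -0.00393 without a filter and -0.18 in low atrial hearts, and -0.12 in Doxo-NMN against Doxo in high atrial hearts. *Bcl2l1* in acute Doxo-NMN against Doxo was -0.26 by voom, -0.18 without both outlying hearts and -0.36 in high atrial hearts (adjusted p = 0.0265). *Bak1* in acute Doxo-NMN against Ctrl was 0.00446 by voom and 0.0324 in high atrial hearts. Chronic values by voom were 0.00749 for *Bax* and -0.0524 for *Bnip3* in Doxo against Ctrl, 0.10 for *Bcl2l1*, 0.00504 for *Mcl1* and 0.0321 for *Bnip3* in Doxo-NMN against Doxo, and 0.15 for *Bcl2*, 0.0822 for *Bax* and -0.0202 for *Bnip3* in Doxo-NMN against Ctrl. The r of *Bcl2l1* with *Cdkn1a*, 0.302 over all 13 hearts, was -0.489 without the farthest 2 hearts. With single hearts left out, acute values ran from -0.0687 to 0.0976 for *Bbc3* (Doxo against Ctrl) and from -0.11 to 0.0835 for *Bcl2l1* (Doxo-NMN against Doxo). Chronic values ran from -0.0166 to 0.60 for *Bnip3* and -0.21 to 0.0077 for *Bid* in Doxo against Ctrl. In Doxo-NMN against Doxo they ran from -0.59 to 0.15 for *Bcl2l1*, -0.19 to 0.0134 for *Mcl1*, -0.57 to 0.0476 for *Bnip3* and -0.20 to 0.0106 for *Bid*. In Doxo-NMN against Ctrl they ran from -0.0848 to 0.17 for *Bcl2*, -0.18 to 0.20 for *Bax*, -0.0851 to 0.10 for *Bnip3* and -0.0609 to 0.0671 for *Bak1*. Without Doxo replicate 6, r with *Cdkn1a* was 0.0982 for *Bcl2* and -0.227 for *Bcl2l1*. The causes were not tested. *Pmaip1*, with few counts, is limited by depth in the chronic study.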
